A study of Mus musculus with 6 samples.

Results

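Fgfr1, Pdgfrb, Igf1r, Pdgfa and Igf1 encode receptors and ligands of the fibroblast growth factor (FGF), platelet-derived growth factor (PDGF) and insulin-like growth factor (IGF) pathways. They were described across 6 Affymetrix arrays of mouse bone marrow cells in which Rad21, a core subunit of the cohesin complex, was targeted by shRNA. The 5 genes were listed by symbol out of 12393 genes on the arrays, and every probe set annotated to exactly 1 of them was kept, which gave 11 of 20380 single-gene probe sets. Because they were picked with their values against empty vector already known, those differences are given here as a description without a p-value. The comparison of shRNA1 with shRNA2, which does not use the empty-vector arrays for its difference, is the one in which they were tested. Earlier results of these data were known when genes and tests were chosen, so this comparison is not an independent test either.

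The 3 groups, each with 2 arrays, carried a lentivirus with Rad21 shRNA1, one with Rad21 shRNA2, or the Empty Vector, which expresses no shRNA. All groups came from C57/BL6 marrow, taken from mice 6 to 8 weeks old and depleted of cells bearing lineage markers. All were exposed to virus for 24 h on retronectin with polybrene, selected overnight with puromycin at 1 µg/mL, sorted for live cells and plated at 10000 cells per mL in methylcellulose with cytokines that the labels do not name. RNA was taken after 7 days, at the end of this primary plating, from all cells of the culture, so each array reads a mixture of cell types. The labels do not say whether replicates came from separate animals or cultures, or how many animals were pooled, so the spread between arrays may be technical. Values are RMA intensities on a linear scale, and differences are in log2 units ± the standard error (SE) of a limma fit of all 3 groups, where the mean of both shRNAs sets 4 arrays against the 2 empty-vector arrays and each shRNA alone sets 2 against 2.

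FGF, PDGF and IGF receptors are tyrosine kinases in the cell membrane. A bound ligand pairs or rearranges the receptor, the kinase phosphorylates its own tail and nearby adaptor proteins, and the signal runs on through the Ras to ERK and PI3 kinase to Akt relays, which act on growth, survival and differentiation. In bone marrow, stromal cells and macrophages are known sources of Igf1, megakaryocytes and platelets store PDGF, and human myeloid neoplasms can carry fusion genes of FGFR1 or PDGFRB.

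Of the arrays, empty-vector replicate 1 stood apart. The 3′ control probe set of Gapdh exceeded its 5′ partner there by 2.42 in log2, where the other arrays had -0.08 to 0.02, and for Actb the gap was 2.55, where they had 0.22 to 0.33. Array medians lay between 100.2 and 104.9 and lower quartiles between 26.8 and 29.3, and the arrays of a group lay 0.151 (shRNA1), 0.141 (shRNA2) and 0.321 (empty vector) from their group mean, as a root mean square over genes in log2 units. Rad21 itself had intensities of 790.2 and 562 with shRNA1 and 724 and 551 with shRNA2, against 2259.6 and 1439 with empty vector. For both shRNAs the difference was -1.47 ± 0.26 (limma adjusted p = 0.0558). It passed with the replicate number as a block (0.0166), while over the alternatives the adjusted p reached 0.203. Without empty-vector replicate 2 the difference was -1.80, and without replicate 1 it was smaller in size than -1.47. The other 2 Rad21 probe sets differed by -1.78 ± 0.40 and, with overlapping groups, by -0.43 ± 0.29. The bone marrow label was checked against markers. All 8 listed haematopoietic genes were measured, and none lay below the median on every array. They summed to 44173 and 46994 with shRNA1 and 41520.4 and 40981 with shRNA2, against 28689.6 and 49054 with empty vector. The empty-vector arrays differed by gene, with 3232 and 4018 for Ptprc, 2733 and 10036 for Tyrobp, and 11954 and 8519 for Laptm5. The 4 measured erythroid markers summed to 637 and 712 with shRNA1 and 615 and 449 with shRNA2, against 4122 and 740.3 with empty vector, where replicate 1 was the high one. That high sum came mainly from Slc4a1, at 3340 and 281 on the empty-vector arrays. Epor had 379 and 206 there and Klf1 379 and 237, and Hba-a1 lay below the lower quartile on every array.

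Upstream DNA was available from RefSeq (GRCm38.p6) for 3 of the 5 genes, Pdgfa, Igf1 and Igf1r, and is shown as a description. Its relation to the differences was not tested. Each line holds the 250 bases before a start site, 5′ to 3′ on the gene's strand, in lower case. Capitals mark matches, on either strand, to a GC box (GGGCGG), a PU.1 core (GAGGAA), a RUNX core (TGTGGT), a STAT5 core (TTCNNNGAA) or the CTCF consensus. PU.1, RUNX and STAT5 are factors of blood cells, and CTCF is the protein at which cohesin is known to halt on chromatin.
Igf1r, chr7:67952007-67952256, plus strand: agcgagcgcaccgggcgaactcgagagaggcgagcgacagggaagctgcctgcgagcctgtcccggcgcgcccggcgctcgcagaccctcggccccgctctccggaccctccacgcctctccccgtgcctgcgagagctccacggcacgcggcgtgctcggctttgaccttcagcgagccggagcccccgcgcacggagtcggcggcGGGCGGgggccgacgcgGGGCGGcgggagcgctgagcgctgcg
Pdgfa, chr5:138994945-138995194, minus strand: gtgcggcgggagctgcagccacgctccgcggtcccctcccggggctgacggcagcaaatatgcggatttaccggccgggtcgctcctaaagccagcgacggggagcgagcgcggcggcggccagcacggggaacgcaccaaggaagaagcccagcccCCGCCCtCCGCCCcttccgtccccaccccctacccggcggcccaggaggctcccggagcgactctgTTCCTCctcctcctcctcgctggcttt
Igf1, chr10:87860861-87861110, plus strand: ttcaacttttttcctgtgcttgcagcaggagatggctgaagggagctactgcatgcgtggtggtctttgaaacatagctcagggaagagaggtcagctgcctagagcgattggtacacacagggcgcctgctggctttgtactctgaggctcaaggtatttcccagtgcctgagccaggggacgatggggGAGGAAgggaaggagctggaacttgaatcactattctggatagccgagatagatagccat
The Igf1r window held 2 GC boxes, starting 43 and 26 bases before the start site, and 42 CpG dinucleotides, more than 99.1% of promoters. The Pdgfa window held 2 GC boxes on the opposite strand, at 93 and 86 bases, a PU.1 core on the opposite strand at 27 bases, and 28 CpG, more than 92.4% of promoters. The Igf1 window held no GC box, a PU.1 core at 60 bases and 5 CpG, against a median of 6 over all 32851 promoters of the same length. Among all of those, 32.7% held a GC box, 23.3% a PU.1 core, 14.0% a RUNX core, 7.02% a STAT5 core and 0.508% the CTCF consensus, and the last 3 had no match in the windows shown. A second RefSeq start site of Pdgfa, inside the transcribed region of the first, is not shown. Shared letters describe these windows and do not show that a factor binds there.

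Fgfr1, the receptor for many FGF ligands, was much lower with either shRNA. On the probe set used for the gene, 1424050_s_at, its intensity was 57.4 and 75.8 with shRNA1 and 39.8 and 40.3 with shRNA2, against 863 and 568 with empty vector. The groups did not overlap, and the highest shRNA array stood far below the lower empty-vector array. The difference for both shRNAs was -3.77 ± 0.22, or 13.6-fold lower, the 4th most negative difference among the 12393 genes. It was -3.41 ± 0.25 with shRNA1 and -4.13 ± 0.25 with shRNA2, and for both -3.46 when empty-vector replicate 1 was left out and -4.07 when replicate 2 was. The other Fgfr1 probe set, 1425911_a_at, was dim: 16.2 and 16.9 with shRNA1 and 14.1 and 14.3 with shRNA2, against 20.0 and 52.8 with empty vector. It also lay lower on every shRNA array, but only empty-vector replicate 2 was above the lower quartile of its array, and the difference of -1.09 ± 0.38 became -1.78 without empty-vector replicate 1 and -0.39 without replicate 2. As the arrays read bulk RNA, fewer cells with the transcript and less of it per cell cannot be told apart, here and for the genes below.

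Pdgfrb, the receptor for PDGF-B and PDGF-D that is best known from pericytes and fibroblasts, was higher with both shRNAs, mainly on 1 of its 2 probe sets. Probe set 1436970_a_at had 80.8 and 44.5 with shRNA1 and 179 and 162 with shRNA2, against 40.5 and 14.1 with empty vector. All shRNA arrays were higher, clearly so with shRNA2, whereas the lower shRNA1 array stood just above empty-vector replicate 1. The difference was 2.08 ± 0.46 for both shRNAs, with 1.33 ± 0.53 for shRNA1 and 2.83 ± 0.53 for shRNA2. Empty-vector replicate 2 lay below the lower quartile of its array (27.2), so the size of the difference is set against a reading near background. It was 2.84 without replicate 1 and 1.32 without replicate 2. Probe set 1417148_at showed little of this, with 41.0 and 46.9 (shRNA1) and 56.0 and 50.2 (shRNA2), against 39.5 and 39.6 (empty vector), and differed by 0.29 ± 0.14. The probe sets of Pdgfrb therefore disagreed on the size of the difference, and which part of the transcript each one reads was not examined.

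Markers of cell types in which Pdgfrb is best known were then read. The summed intensity of the 9 measured fibroblast and reticular stroma markers ran from 202 to 226 with shRNA1 and from 208 to 238 with shRNA2, against 214 to 249 with empty vector. All 9 lay below the median on every array, and Col1a1, Col3a1, Lum, Cxcl12 and Postn were below the lower quartile on every array. The 7 pericyte and smooth muscle markers summed to 679 to 702 (shRNA1) and 586 to 617 (shRNA2), against 546 to 752 (empty vector), and 4 of the 7 lay below the median on every array, among them Myh11, the smooth muscle myosin, below the lower quartile throughout. Acta2, smooth muscle actin, stood above the medians on every array, at 424 and 343 (shRNA1) and 301 and 249 (shRNA2), against 363 and 242 (empty vector). No member of either list passed the threshold in any of the comparisons, and neither sum separated shRNA from empty-vector arrays. The 6 endothelial markers summed to 334 to 359 (shRNA1) and 324 to 361 (shRNA2), against 321 to 382 (empty vector), with Cdh5, Tie1 and Emcn below the lower quartile, and the 3 measured osteoblast markers to 114 to 127 and 128 to 129.7, against 113 to 141.

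Igf1r, the receptor that IGF-1 and IGF-2 use to signal, was higher with both shRNAs by less than the other genes. Probe set 1426565_at had 244 and 203 with shRNA1 and 349 and 282 with shRNA2, against 168 and 129 with empty vector. The 3 groups formed 3 separate steps, with shRNA2 on top. The difference was 0.85 ± 0.19 (1.80-fold) for both shRNAs, 0.60 ± 0.21 with shRNA1 and 1.09 ± 0.21 with shRNA2. For both it was 1.04 without empty-vector replicate 1 and 0.65 without replicate 2. The dimmer probe set 1452108_at had 49.4 and 49.0 with shRNA1 and 73.5 and 50.3 with shRNA2, against 33.3 and 35.8 with empty vector, a difference of 0.66 ± 0.19. Both Igf1r probe sets thus placed every shRNA array above both empty-vector arrays.

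Pdgfa, a PDGF chain that acts mainly through the PDGF alpha receptor, was lower with both shRNAs on both of its probe sets. Probe set 1418711_at had 106 and 119.9 with shRNA1 and 73.4 and 67.6 with shRNA2, against 313 and 378 with empty vector. These differed by -1.95 ± 0.15 for both shRNAs (3.85-fold lower), by -1.61 ± 0.17 for shRNA1 and by -2.29 ± 0.17 for shRNA2. Again the 3 groups did not overlap, and within each group the 2 arrays lay close together. Probe set 1449187_at had 81.5 and 114 with shRNA1 and 49.2 and 56.3 with shRNA2, against 452 and 419 with empty vector, a difference of -2.61 ± 0.18. Leaving out empty-vector replicate 1 gave -2.08 and -2.56, and leaving out replicate 2 gave -1.81 and -2.67.

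Megakaryocyte markers, genes of the cells that load platelets with PDGF, had a lower summed intensity on the shRNA arrays. The 4 measured of 5 listed genes summed to 5408 and 9591 with shRNA1 and 6040 and 6488 with shRNA2, against 14991 and 13192 with empty vector. Pf4, the platelet chemokine, differed by -0.92 (limma adjusted p = 0.129), the integrin gene Itga2b by -1.46 (0.101), and Gp1bb, a platelet adhesion receptor subunit, by -2.02 (0.0553) for both shRNAs. Gp9, another subunit of that receptor, differed by -0.46 (0.516), with shRNA1 and empty-vector arrays overlapping. None of the 4 passed the threshold, none lay below the median on every array, and their part in the Pdgfa result was not tested.

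Igf1, the growth factor that binds Igf1r, was lowest with shRNA2 on all 3 of its probe sets. Probe set 1419519_at had 208 and 241 with shRNA1 and 36.2 and 60.3 with shRNA2, against 946 and 976 with empty vector. Here the empty-vector arrays were nearly equal, the 3 groups were separate, and the differences were -2.10 ± 0.27 for shRNA1 (4.29-fold lower) and -4.36 ± 0.27 for shRNA2 (20.6-fold lower). Probe set 1452014_a_at, the one used for the gene, had 379 and 527 with shRNA1 and 62.7 and 117 with shRNA2, against 496 and 1992 with empty vector. On it empty-vector replicate 1 lay between the 2 shRNA1 arrays, so only shRNA2 was separate from empty vector. Its differences were -1.15 ± 0.67 with shRNA1, -3.54 ± 0.67 with shRNA2 and -2.35 ± 0.58 for both, the last being -3.35 without empty-vector replicate 1 and -1.34 without replicate 2. The shRNA1 value was -2.16 without empty-vector replicate 1 and -0.15 without replicate 2, so its size depended on which empty-vector array was used. Probe set 1437401_at had 224 and 364 with shRNA1 and 28.6 and 54.5 with shRNA2, against 415 and 1256 with empty vector. It repeated the wide empty-vector spread, without overlap, and differed by -1.34 ± 0.60 with shRNA1 and -4.19 ± 0.60 with shRNA2.

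**Figure D1:**
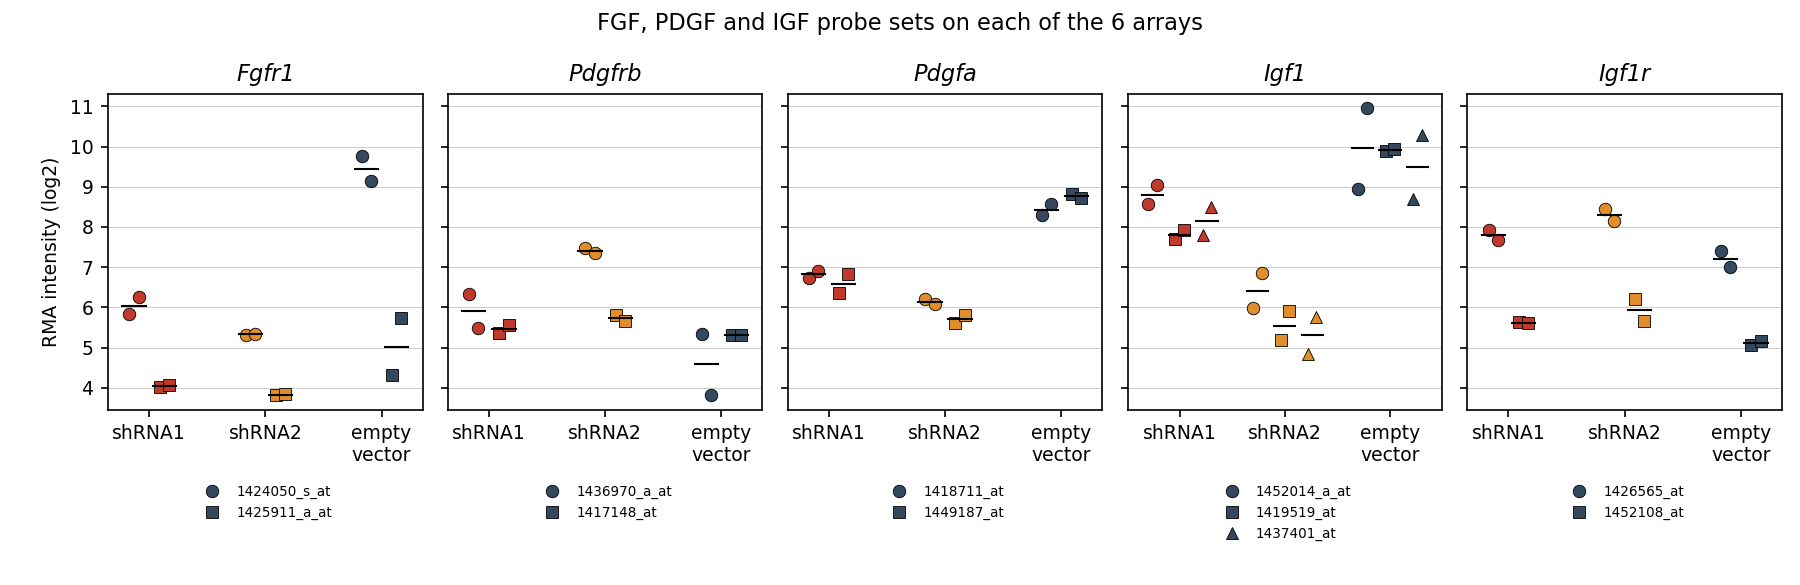
RMA intensity on a log2 axis for the 11 probe sets of the 5 genes; each point is 1 array, a marker shape stands for a probe set, and a short black line is the mean of a group's 2 arrays. Fgfr1 1424050_s_at and both Pdgfa probe sets are low with shRNA1 and shRNA2, Igf1 is lowest with shRNA2, and the shRNA2 arrays of Pdgfrb 1436970_a_at and Igf1r 1426565_at are the highest.

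Across the 11 probe sets, 6 were lower and 4 higher on all shRNA arrays than on both empty-vector arrays, and 1 (Igf1 1452014_a_at) overlapped. Such separation was found in 24.5% of all 20380 probe sets; at the level of genes 13.6% lay below and 11.5% above. As the genes were chosen from these values, nothing is read from that count. In all 11 probe sets the shRNA2 mean was further from empty vector than the shRNA1 mean. Over all genes, limma called 2.83% for shRNA2 and 0.234% for shRNA1 against empty vector. The share of all probe sets with this order is not given here, so nothing is read from the order in the 11. The empty-vector arrays enter both differences, so the values are only set side by side.

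**Figure D2:**
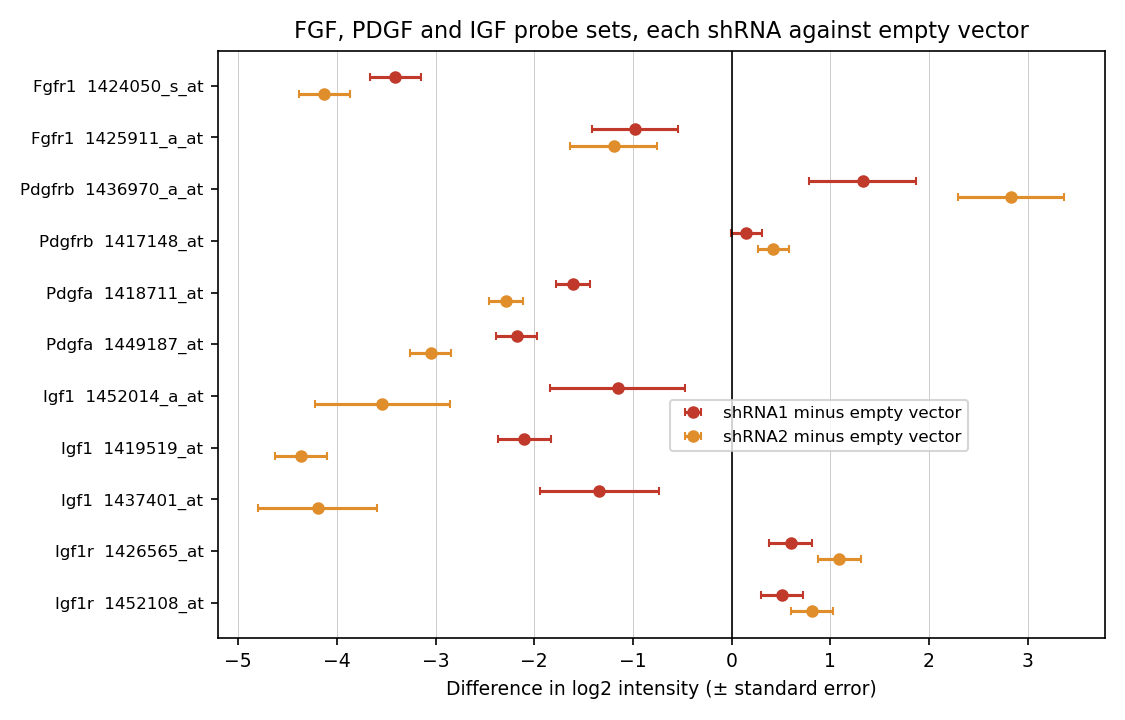
Difference in log2 intensity from empty vector for each probe set, for shRNA1 (red, upper point of a pair) and shRNA2 (orange, lower point); bars are ± 1 SE from the limma fit over all probe sets, n = 2 arrays a group. Points left of 0 are lower with the shRNA, from -4.36 for Igf1 1419519_at with shRNA2, and points right of 0 are higher, up to 2.83 for Pdgfrb 1436970_a_at with shRNA2.

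The direct comparison of the shRNAs asked whether the 5 genes differed between shRNA1 and shRNA2 arrays. For none of them did the difference pass the threshold in limma over all genes, and 0 of 12393 genes did (0%), with 606 (4.89%) at an unadjusted p under 0.05 and a smallest adjusted p of 0.204. In each of the 5 genes, nevertheless, the 2 shRNA1 arrays did not overlap the 2 shRNA2 arrays, as was so in 41.6% of all genes. The largest difference was in Igf1, 2.39 ± 0.67 higher with shRNA1 (95% interval 0.74 to 4.03, limma adjusted p = 0.674, unadjusted p = 0.0121). Pdgfa was 0.68 ± 0.17 higher with shRNA1 (0.26 to 1.10, adjusted p = 0.646) and Fgfr1 0.72 ± 0.25 higher (0.10 to 1.34, adjusted p = 0.897). Pdgfrb differed by -1.50 ± 0.53 (-2.81 to -0.20, adjusted p = 0.897) and Igf1r by -0.50 ± 0.21 (-1.02 to 0.03, adjusted p = 0.999), both lower with shRNA1. The unadjusted p was under 0.05 in 4 of the 5, all but Igf1r. As the genes were chosen with earlier results of these data known, nothing is read from that number. Intervals that leave out 0 before adjustment over all genes do not carry a call after it, and a missed threshold does not show that the shRNAs acted alike.

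This fit takes 1 spread for all 3 groups, and the empty-vector arrays have the widest. When only the 4 shRNA arrays were fitted, an alternative chosen after the data were seen, 44 of 12393 genes (0.355%) passed for shRNA1 against shRNA2 and 1554 had an unadjusted p under 0.05. None of the 5 was among the 44: limma adjusted p was 0.0697 for Igf1, 0.130 for Pdgfa, 0.134 for Pdgfrb, 0.186 for Fgfr1 and 0.321 for Igf1r. Of the other 6 probe sets, Igf1 1419519_at differed most firmly, by 2.26 ± 0.27 with a limma adjusted p of 0.280 over all 20380 probe sets, where also 0 passed. It passed, at an adjusted p of 0.0318, only when arrays were weighted by the spread of their group, which gave weights of 1.56 to shRNA1, 1.93 to shRNA2 and 0.333 to empty-vector arrays.

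Macrophage markers were examined beside Igf1, as macrophages are a known source of it. Of 8 listed genes 7 were measured, and their intensities summed to 13299 and 15710 with shRNA1 and 7390 and 7443 with shRNA2, against 7328 and 18163 with empty vector. The sum was therefore lower with shRNA2 than with shRNA1, and the empty-vector arrays spanned the whole range, with replicate 1 low as it was in Igf1 1452014_a_at. Mrc1, the mannose receptor of tissue macrophages, had 2170 and 3282 with shRNA1 and 551 and 724 with shRNA2, against 2879 and 5381 with empty vector. For shRNA2 Mrc1 fell by 2.64 on the log2 scale relative to empty vector (limma adjusted p = 0.0273; 2.83% of all genes passed for shRNA2), and between shRNA1 and shRNA2 it differed by 2.08 (adjusted p = 0.320). Csf1r, the receptor for macrophage colony-stimulating factor, was instead 0.71 ± 0.16 higher for both shRNAs (adjusted p = 0.102). With shRNA2, Adgre1 differed from empty vector by -1.16 (limma adjusted p = 0.329) and Cd68 by -0.20 (0.947). Cd68, which enters the sum, had 3764 and 5180 with shRNA1 and 1903 and 2012 with shRNA2, against 812 and 6240 with empty vector. The complement genes C1qa, C1qb and C1qc were below the median on every array, between 19.4 and 71.1. The part of macrophage content in the Igf1 values was not tested.

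**Figure D3:**
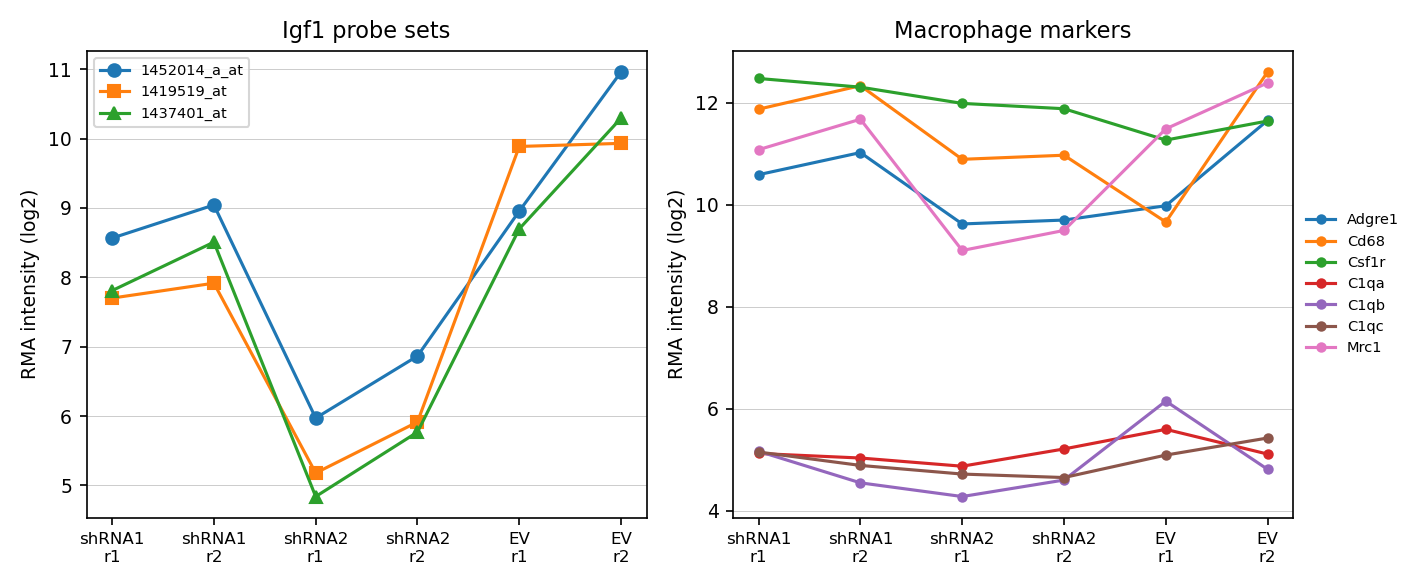
Left, the 3 Igf1 probe sets, and right, the 7 measured macrophage markers, as RMA intensity on a log2 axis over the 6 arrays (r1 and r2 are replicates, EV is empty vector); lines only join the points of 1 probe set or gene. Mrc1 is lowest on the shRNA2 arrays, at 551 and 724, as Igf1 is, whereas Csf1r is lowest on the empty-vector arrays.

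The other genes of the 3 pathways were counted from lists, and few of them passed. Of 107 listed genes 89 were measured, and for both shRNAs 2 fell and 0 rose, which is 2.25% of the list, against 2.13% of all 12393 genes (264 genes, 0.734% higher and 1.4% lower). The share called was thus close to that of all genes. The median difference was -0.06 over the list and -0.02 over all genes, 16 of the 89 (18.0%, against 16.7% of all genes) had an unadjusted p under 0.05, and all shRNA arrays lay above empty vector in 6 (6.74%, against 11.5%) and below in 21 (23.6%, against 13.6%). With 1 empty-vector array left out the count was 4 (replicate 1; 4.49%, against 5.24% of all genes) or 18 (replicate 2; 20.2%, against 25.2% of all genes), and it was 0 when any 1 of the 4 shRNA arrays was left out.

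Among 27 measured ligands, Pdgfc fell and the other 26 did not pass (3.7% called, against 2.13% of all genes). Pdgfc, which like Pdgfa binds the PDGF alpha receptor, had 72.5 and 53.5 with shRNA1 and 29.6 and 27.9 with shRNA2, against 229 and 115 with empty vector. The groups were separate, the difference was -1.94 ± 0.30 (limma adjusted p = 0.0413), and the second Pdgfc probe set differed by -1.10 ± 0.17. The adjusted p was 0.0239 without empty-vector replicate 1 and 0.00280 without replicate 2, and the call was lost without any 1 of the shRNA arrays (0.129 to 0.184). The other PDGF genes Pdgfb and Pdgfd differed by -0.39 and 0.03, and Igf2, the second IGF, by 0.09, none of them past the threshold.

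None of the 10 measured receptors and coreceptors passed. Their differences ran from -0.72 to 0.02, and Fgfr1, Pdgfrb and Igf1r, which had been chosen with their values known, lay outside that range. Fgfr2, Fgfr3 and Fgfr4 differed by 0.00, -0.09 and -0.18, and Insr, the insulin receptor, by 0.01. Pdgfra, the receptor for Pdgfa and Pdgfc, was at 26.2 and 26.8 with shRNA1 and 27.9 and 24.8 with shRNA2, against 32.4 and 30.7 with empty vector, close to the lower quartile of the arrays, and differed by -0.26 ± 0.13 (limma adjusted p = 0.392). Igf2r, which removes IGF-2 from the surface, differed by -0.53 ± 0.29 (adjusted p = 0.433), with -1.05 (adjusted p = 0.0252) without empty-vector replicate 1, -0.02 (0.942) without replicate 2 and -1.41 on its other probe set.

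The IGF binding proteins, which hold IGFs in the medium, and their proteases had 11 measured genes, none past the threshold. Igfbp4 was highest with shRNA2, at 2584 and 2269, and at 1456 and 1064 with shRNA1, against 1301 and 880.1 with empty vector. Its difference was 0.70 ± 0.22 for both shRNAs (limma adjusted p = 0.207), and it was 0.98 without empty-vector replicate 1 and 0.42 without replicate 2. All 6 Igfbp4 probe sets differed in the same direction, by 0.59 to 0.86, and none of them passed. Stc2, an inhibitor of the protease that cuts Igfbp4, differed by 0.36 ± 0.14 (adjusted p = 0.289).

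For both shRNAs together, none of the 32 measured adaptors and relays passed. Their differences ran from -1.01 to 1.29, with 20 negative and 12 positive. The highest was that of Cbl, at 1.29 ± 0.44 (limma adjusted p = 0.228). Gab1, a docking protein below many of these receptors, had 59.9 and 72.5 with shRNA1 and 34.9 and 50.2 with shRNA2, against 101 and 111 with empty vector. The groups were separate on this probe set and the difference was -1.01 ± 0.19 (limma adjusted p = 0.0687), which passed with the replicate number as a block (0.0447) or without empty-vector replicate 2 (0.0389). With shRNA2 alone Gab1 fell by 1.34 on the log2 scale (adjusted p = 0.0427). On its other 2 probe sets, which overlapped between the groups, it differed by -1.02 ± 0.32 and -0.23 ± 0.20. Pik3cd, the leukocyte PI3 kinase subunit, differed by -0.83 ± 0.25 (adjusted p = 0.189), with -0.42 (0.232) without empty-vector replicate 1 and -1.23 (0.00674) without replicate 2, while its other 2 probe sets differed by 0.05 and 0.28.

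Of 9 measured feedback and target genes, which ERK signalling is known to induce, Dusp6 fell (11.1% called, against 2.13% of all genes). Dusp6, the phosphatase that switches off ERK, had 1639 and 1504 with shRNA1 and 1292 and 1158 with shRNA2, against 2441 and 2699 with empty vector. The 3 groups did not overlap and the difference was -0.89 ± 0.14 (limma adjusted p = 0.0412). The adjusted p was 0.0283 and 0.0135 without empty-vector replicate 1 or 2, 0.0544 with the replicate number as a block, and 0.139 to 0.193 without any 1 of the shRNA arrays. Spred1, an inhibitor of Ras activation named here after its value was seen, differed by -0.73 ± 0.14 (adjusted p = 0.0740). The 9 differences ran from -0.89 to 0.31, with 6 negative and 3 positive. Spred2 had the 0.31, and Il17rd, Etv5 and Spry2 differed by 0.10, 0.05 and -0.02, none of them past the threshold.

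Other receptor tyrosine kinases served as relatives of the 3 receptors. For both shRNAs together 1 of 30 measured, Kit, fell (3.33% called, against 2.13% of all genes). Kit, the stem cell factor receptor of progenitors and mast cells, had 486 and 801 with shRNA1 and 661 and 905 with shRNA2, against 2042 and 2194 with empty vector. The difference was -1.61 ± 0.25 (limma adjusted p = 0.0412) with -1.07 on its other probe set, and the shRNA1 and shRNA2 arrays overlapped. Without any 1 of the shRNA arrays the adjusted p was 0.0564 to 0.182, and it was 0.0484 and 0.0209 without empty-vector replicate 1 or 2. The 5 mast cell markers summed to 12456 and 16235 with shRNA1 and 17259 and 17888 with shRNA2, against 19523 and 26079 with empty vector. For both shRNAs 1 of them, the protease Mcpt2, fell (-2.04 ± 0.25, limma adjusted p = 0.0225). Mcpt1, Tpsab1 and Cma1 differed by -1.84, -2.17 and -0.98 without passing (0.137, 0.111 and 0.117). Cpa3 differed by -0.11 (0.814), and by 0.08 with shRNA2 alone. The part of these markers in the Kit result was not tested. With 1 empty-vector array left out 3 (replicate 1; 10%, against 5.24% of all genes) or 4 (replicate 2; 13.3%, against 25.2%) of these receptors were called, and 0 without any 1 of the shRNA arrays.

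**Figure D4:**
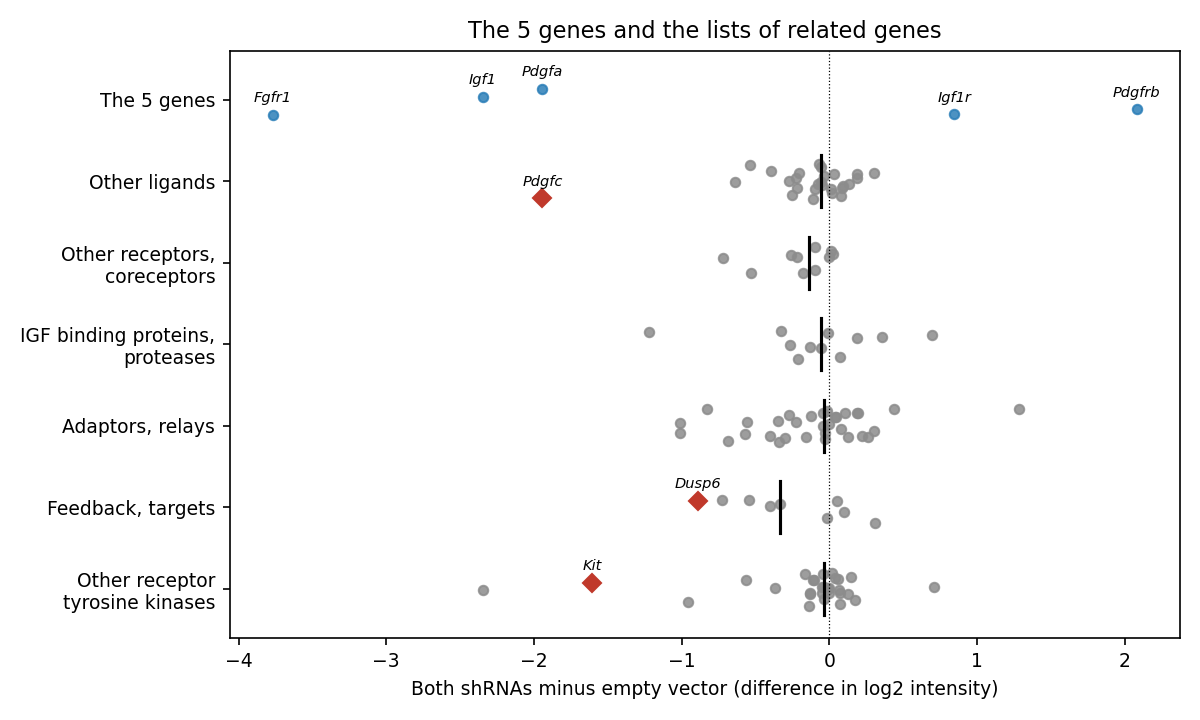
Difference in log2 intensity, both shRNAs minus empty vector, for the 5 genes (blue) and for each list of related genes; 1 point is 1 gene, red diamonds are the called genes Pdgfc, Dusp6 and Kit, and a black bar is the median of a list (points are spread vertically for legibility). Most listed genes lie near 0, with medians from -0.33 for feedback and target genes to -0.04 for adaptors and for other receptor tyrosine kinases.

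Genes with the most similar pattern over the 6 arrays were found for each of the 5 by the root mean square difference of log2 values, each gene centred on its own mean. For Fgfr1 they were Mab21l1 (0.249), Ifit1, an interferon-induced gene (0.326), and the desmosome gene Pkp2 (0.417). Mab21l1 had 19.5 and 31.1 with shRNA1 and 15.4 and 14.4 with shRNA2, against 229 and 262 with empty vector. For Pdgfrb they were Ighm, the immunoglobulin heavy chain of B cells (0.264), Elovl6, a fatty acid elongase (0.350), and Tk1, the thymidine kinase of dividing cells (0.371). Ighm had 1091 and 467 with shRNA1 and 1718 and 1527 with shRNA2, against 299 and 124 with empty vector.

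The same measure was taken for the remaining 3 genes. Pdgfa was most like the transcription factor gene Atf5 (0.159), the B cell adaptor Blnk (0.166) and the cell cycle inhibitor Cdkn2b (0.166). Igf1 was most like Ch25h, which makes 25-hydroxycholesterol (0.264), Mertk, a receptor for dying cells on macrophages (0.293), and Slc7a2, a cationic amino acid transporter (0.312). Mertk is also 1 of the receptor tyrosine kinases counted above, with 169 and 233 with shRNA1 and 46.8 and 59.4 with shRNA2, against 311 and 869 with empty vector. It shared with Igf1 the low empty-vector replicate 1, and its difference of -2.35 ± 0.42 did not pass for both shRNAs (limma adjusted p = 0.0581), while with shRNA2 alone it fell by 3.30 on the log2 scale (adjusted p = 0.0309). Igf1r was most like Nt5dc2 (0.0578), Haus4, a subunit of the augmin complex of the spindle (0.0734), and Limd2 (0.0965). Pearson's r of these pairs ran from 0.975 to 0.994 over 6 arrays. The pairs were picked as the most similar among all genes, and the arrays share the 3 groups. The 3 genes most like Igf1 also share its low empty-vector replicate 1, so more than group means enters. The likeness is a description.

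**Figure D5:**
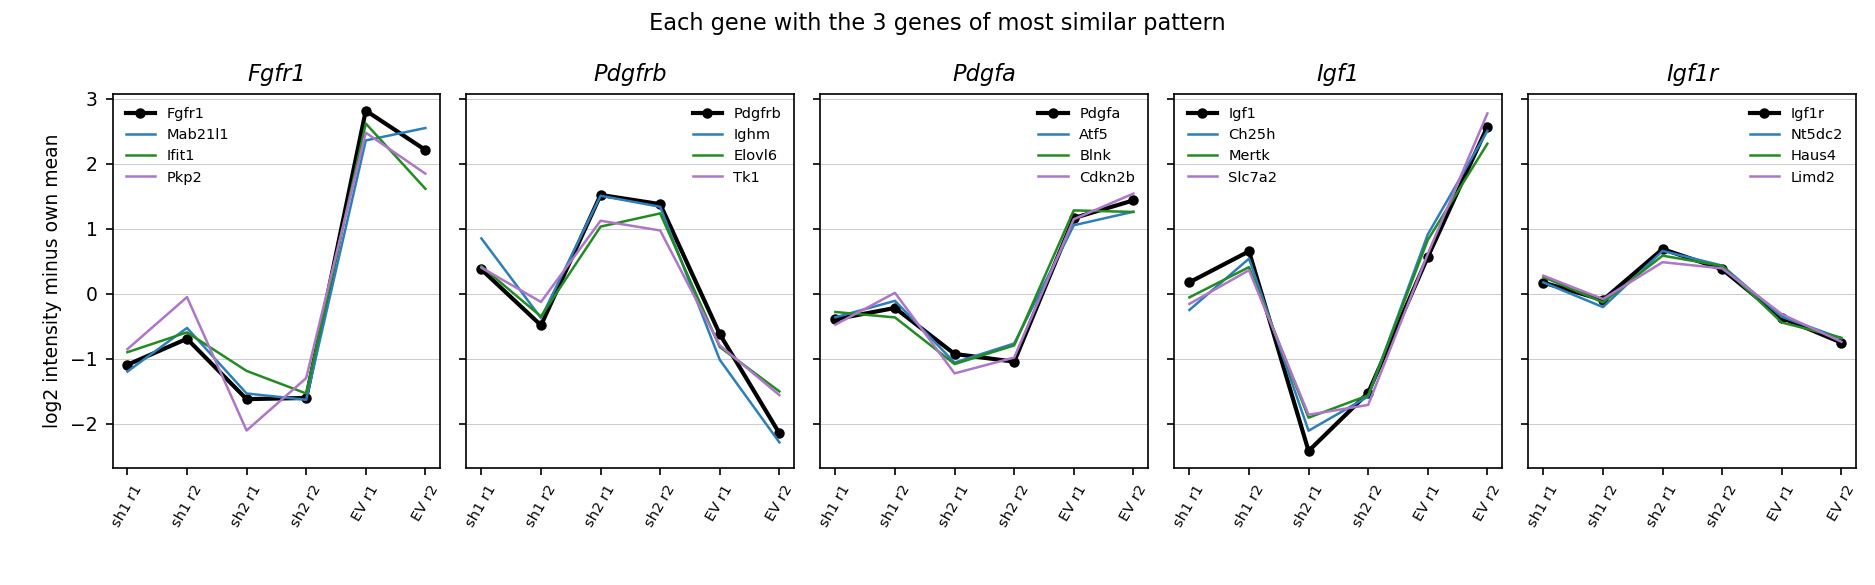
log2 intensity minus the gene's own mean over the 6 arrays, for each of the 5 genes (black) and its 3 most similar genes (colours); sh1 and sh2 are shRNA1 and shRNA2, EV is empty vector, r1 and r2 are replicates, and lines only join the points of a gene. Fgfr1 and Pdgfa are highest on the empty-vector arrays, Igf1 has its peak on empty-vector replicate 2 and its low on the shRNA2 arrays, and Pdgfrb and Igf1r are highest with shRNA2.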

How the data were processed

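RNA from 6 samples was read on Affymetrix arrays. The deposited table holds RMA intensities on a linear scale for 22690 probe sets, which the authors obtained by RMA, per the submitters' processing notes; version, software and genome build were not given in the sources used here. RMA equalizes the arrays' distributions, which hides any shift of total RNA per cell, and it compresses dim differences. log2 was taken with no pseudocount or dim filter. The platform annotation gave 20380 probe sets 1 gene, 691 several and 1555 none; 64 control probe sets were left out. A gene was read from its probe set with the highest mean over all arrays (12393 genes, 4956 with 2 or more probe sets).

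limma 3.58.1 (R 4.3.3; lmFit, eBayes) fitted the 3 groups together, with 3 residual and 2.91 prior degrees of freedom, two-sided, with Benjamini-Hochberg adjustment over all genes and a threshold of 0.05. The same model over all probe sets served the other probe sets of the 5 genes. The script was tested on simulated data. The 5 genes, the pathway and marker lists and the tests were chosen with earlier results of these data known. From each list the text names genes past the threshold for both shRNAs, otherwise the 2 with the smallest p, relatives of the 5 by value, and the 3 most similar genes of each of the 5. Alternatives were leaving out each array or the dimmer 50% of genes, the mean of all probe sets, quantile normalization, median centring, an intensity trend, array weights and the replicate number as a block. Promoters and symbols came from RefSeq tables; other steps ran in Python 3.11.15 with matplotlib 3.10.9, numpy 2.4.6 and pandas 2.3.3. With 2 arrays a group, the number of arrays limits the precision.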

Additional observations from a re-analysis of the deposited data

How the results depend on the processing

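All differences of the 5 genes against empty vector kept their direction under every alternative that gave a value. The dimmer 50% filter removed Fgfr1, Pdgfrb and Pdgfa, so it gave none for them. Taking the mean of all probe sets moved Fgfr1 to -2.43, -2.19 and -2.66 (both shRNAs, shRNA1, shRNA2), Pdgfa to -2.28, -1.89 and -2.67, and Pdgfrb to 1.18, 0.74 and 1.63, as it averages in a dimmer or disagreeing probe set. Leaving out each array in turn gave -4.07 to -3.46, -3.71 to -3.10 and -4.43 to -3.82 for Fgfr1, -3.35 to -1.34, -2.16 to -0.15 and -4.54 to -2.54 for Igf1, and 1.32 to 2.84, 0.57 to 2.09 and 2.07 to 3.60 for Pdgfrb, in the same order. For both shRNAs the range was 0.65 to 1.04 for Igf1r. For both shRNAs against empty vector, 264 genes were called in the fit reported, 51 with array weights, 113 with the dimmer 50% left out, and 3 to 3121 with 1 array left out; with a lone empty-vector array, that array is assumed to vary like the shRNA groups. Pathway genes called (2 as reported) were 0 with array weights or the dimmer 50% left out, 4 with the mean of all probe sets, 1 with quantile normalization and 0 to 18 with 1 array left out. Other receptor tyrosine kinases called (1 as reported) were 0 with array weights, the dimmer 50% left out or quantile normalization, 2 with an intensity trend or the replicate block, and 0 to 4 with 1 array left out. For shRNA1 against shRNA2, 0 genes were called as reported, 98 with array weights, 44 in the shRNA arrays alone and 0 to 44 with 1 array left out. The causes of these shifts were not tested. Deviations of same-numbered replicates from their group means correlated at 0.199 (shRNA1 with empty vector), 0.148 (shRNA2 with empty vector) and 0.578 (shRNA1 with shRNA2), but 2 replicate numbers do not settle whether they pair the arrays. With the replicate number as a block 288 genes and 2 pathway genes were called, Dusp6 was lost (adjusted p = 0.0544), and Gab1 (0.0447) and Rad21 (0.0166) were gained. Dusp6, Pdgfc and Kit had limma adjusted p-values of 0.182, 0.0899 and 0.225 with array weights, and Kit and Pdgfc 0.0537 and 0.0649 with quantile normalization. Empty-vector replicate 1, with its 3′ to 5′ gap, and 2 arrays a group limit every value; intensities near the lower quartile of the arrays, as for Fgfr1 1425911_a_at, have little signal over background.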
